A study of Oryza sativa with 12 samples.

Results

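Expansins and xyloglucan endotransglucosylases/hydrolases (XTHs) are the main protein families that remodel the growing plant cell wall, and the transcripts of both were followed through roots and shoots of rice. Expansins were taken as every gene model whose description carries the Pfam domain PF01357 (expansin C-terminal domain, pollen allergen), and XTHs as every model with PF06955 (the XET C-terminus). The rule selected 105 of the 57501 gene models, 75 expansins and 30 XTHs. All 30 XTH models also carried the glycosyl hydrolase family 16 domain, and 56 of the 75 expansins carried the second, RlpA-like expansin domain, while 19 did not. By their names the expansin models were 35 α-expansins (EXPA), 19 β-expansins (EXPB), 4 expansin-like A (EXLA), 1 expansin-like B (EXLB), 15 pollen-allergen or unnamed models and 1 model named as a subunit of the transcription factor NF-Y.

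RNA with poly(A) tails was sequenced from rice plants 21 days old in hydroponic culture. The 4 groups were OX6 root, WT root, OX6 shoot and WT shoot, with 3 libraries each. OX6 is 1 line that overexpresses Zaxinone Synthase (ZAS), the enzyme that makes the apocarotenoid zaxinone, and WT is the cultivar Nipponbare. The title of each of the 12 samples also carries a letter P that the labels do not explain, so a growth condition shared by all 4 groups cannot be stated. The promoter that drives ZAS is not named in the labels, and since OX6 is 1 line, an effect of overexpression and an effect of this line cannot be told apart.

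Expansins loosen the wall at acid pH without cutting its polymers. The α-expansins act on cellulose-xyloglucan contacts, while β-expansins are abundant in grasses, where the group includes pollen allergens, and a maize β-expansin acts on arabinoxylan. No wall-loosening activity is known for expansin-like A and B proteins. XTHs cut xyloglucan and join the cut end to another xyloglucan chain or to water, and grass walls hold less xyloglucan than those of most other flowering plants. Each XTH model carries the name of its closest homologue, for 26 of 30 an Arabidopsis protein, so several models share 1 number and locus identifiers are given throughout.

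Gene counts summed to 32269044 to 62910092 per library, and 28851 to 32074 models had at least 1 count. The locus known as ZAS, LOC_Os09g15240, had 12637 to 14246 counts in OX6 root libraries and 109 to 124 in WT root libraries, and 51763 to 64950 in OX6 shoot libraries and 5 to 26 in WT shoot libraries. Chlorophyll a-b binding genes (20 of 21 detected) summed to 92400 to 100000 CPM (counts scaled to library size) in OX6 shoots and 113000 to 131000 CPM in WT shoots, and to 41.1 to 66.5 CPM in OX6 roots and 60.6 to 89.7 CPM in WT roots. The root silicon transporters Lsi1 and Lsi2 together with NRT2.1 summed to 4920 to 6260 CPM in OX6 roots and 5600 to 6640 CPM in WT roots, and to 9.32 to 11.5 CPM in OX6 shoots and 11.1 to 18.6 CPM in WT shoots. The organ labels matched Lsi1, Lsi2 and the chlorophyll genes, while the nitrate transporter NRT2.1 was at 0 in every OX6 library and every WT shoot library and at most 0.0466 CPM in WT roots.

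Levels below are CPM per kb of exon, scaled over all 12 libraries so that genes of different length can be compared, and are given as mean ± SD of n = 3 libraries. A gene was called when its adjusted p from edgeR's quasi-likelihood test was under 0.05. Counts at an unadjusted p under 0.05 are given without the share of all genes, so they cannot show whether a set holds an excess. The labels do not record whether libraries came from separate plants, so p-values reflect variation among the libraries at hand, part or all of it possibly technical.

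Summed over their members, both families had more transcript in roots than in shoots, and the gap was wider for expansins. Summed expansin transcripts reached 1170 ± 73.3 CPM per kb in OX6 roots and 1070 ± 35.2 in WT roots, and 444 ± 29.3 in OX6 shoots and 477 ± 36.8 in WT shoots. Summed XTH transcripts reached 1120 ± 60.4 CPM per kb in OX6 roots and 1010 ± 28.2 in WT roots, and 866 ± 43.1 in OX6 shoots and 652 ± 27.3 in WT shoots. The 3 OX6 shoot libraries held 821, 869 and 907 CPM per kb of XTH transcript, against 623, 677 and 656 in WT shoots, so these groups did not overlap. In bulk tissue, fewer cells of a type and less RNA per cell cannot be told apart.

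The XTH total rested on 1 gene to a larger extent than the expansin total. LOC_Os08g13920, which bears the name of rice XTH8, a gibberellin-responsive gene of the leaf sheath, lies on chromosome 8 at 8327866 to 8329399 of the authors' annotation and made up 45.3% of the family level in OX6 roots, 44% in WT roots and 38.6% in both OX6 and WT shoots. In OX6 roots LOC_Os11g33270, an XTH with no number, followed with 155 ± 19.7 CPM per kb, then LOC_Os06g48180 (XTH25) with 101 ± 12.4 and LOC_Os06g48160 (XTH22) with 80.6 ± 9.83. In WT roots these 3 stood in the same order at 131 ± 14.2, 101 ± 1.52 and 63.7 ± 5.86 CPM per kb. In shoots the genes after LOC_Os08g13920 were LOC_Os06g48200 (XTH25), LOC_Os06g48160 and LOC_Os04g53950 (XTH9), at 119 ± 5.16, 103 ± 10.2 and 70.2 ± 5.59 CPM per kb in OX6 and 80.5 ± 4.43, 51.9 ± 8.54 and 47.3 ± 6.86 in WT.

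Expansin transcript was spread over more genes. The β-expansin EXPB7 (LOC_Os03g01270) led in roots with 177, 147 and 203 CPM per kb in the OX6 libraries and 152, 138 and 166 in the WT libraries, 15.1% and 14.2% of the family level. It was followed by EXPB4 (LOC_Os10g40730) at 108 ± 4.39 CPM per kb in OX6 roots and 93.1 ± 3.18 in WT roots, with EXPB6 (LOC_Os10g40700) and EXPA11 (LOC_Os01g16770) next over both genotypes. Shoots had another leading set. EXLA1 (LOC_Os03g04020) was the highest expansin in OX6 shoots at 88.6 ± 5.49 CPM per kb and number 5 in WT shoots at 45.6 ± 0.905, whereas EXPB3 (LOC_Os10g40720) came next in OX6 shoots at 79.3 ± 10.9 and the highest in WT shoots at 99.1 ± 8.56. EXPB4 and EXPA4 (LOC_Os05g39990) completed the leading 4 over both genotypes. At least 1 CPM per kb was reached by 45 expansins in OX6 roots and 45 in WT roots, and by 25 in OX6 shoots and 26 in WT shoots. For XTHs these numbers were 25 in OX6 roots and 24 in WT roots, and 20 in OX6 shoots and 20 in WT shoots.

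**Figure D1:**
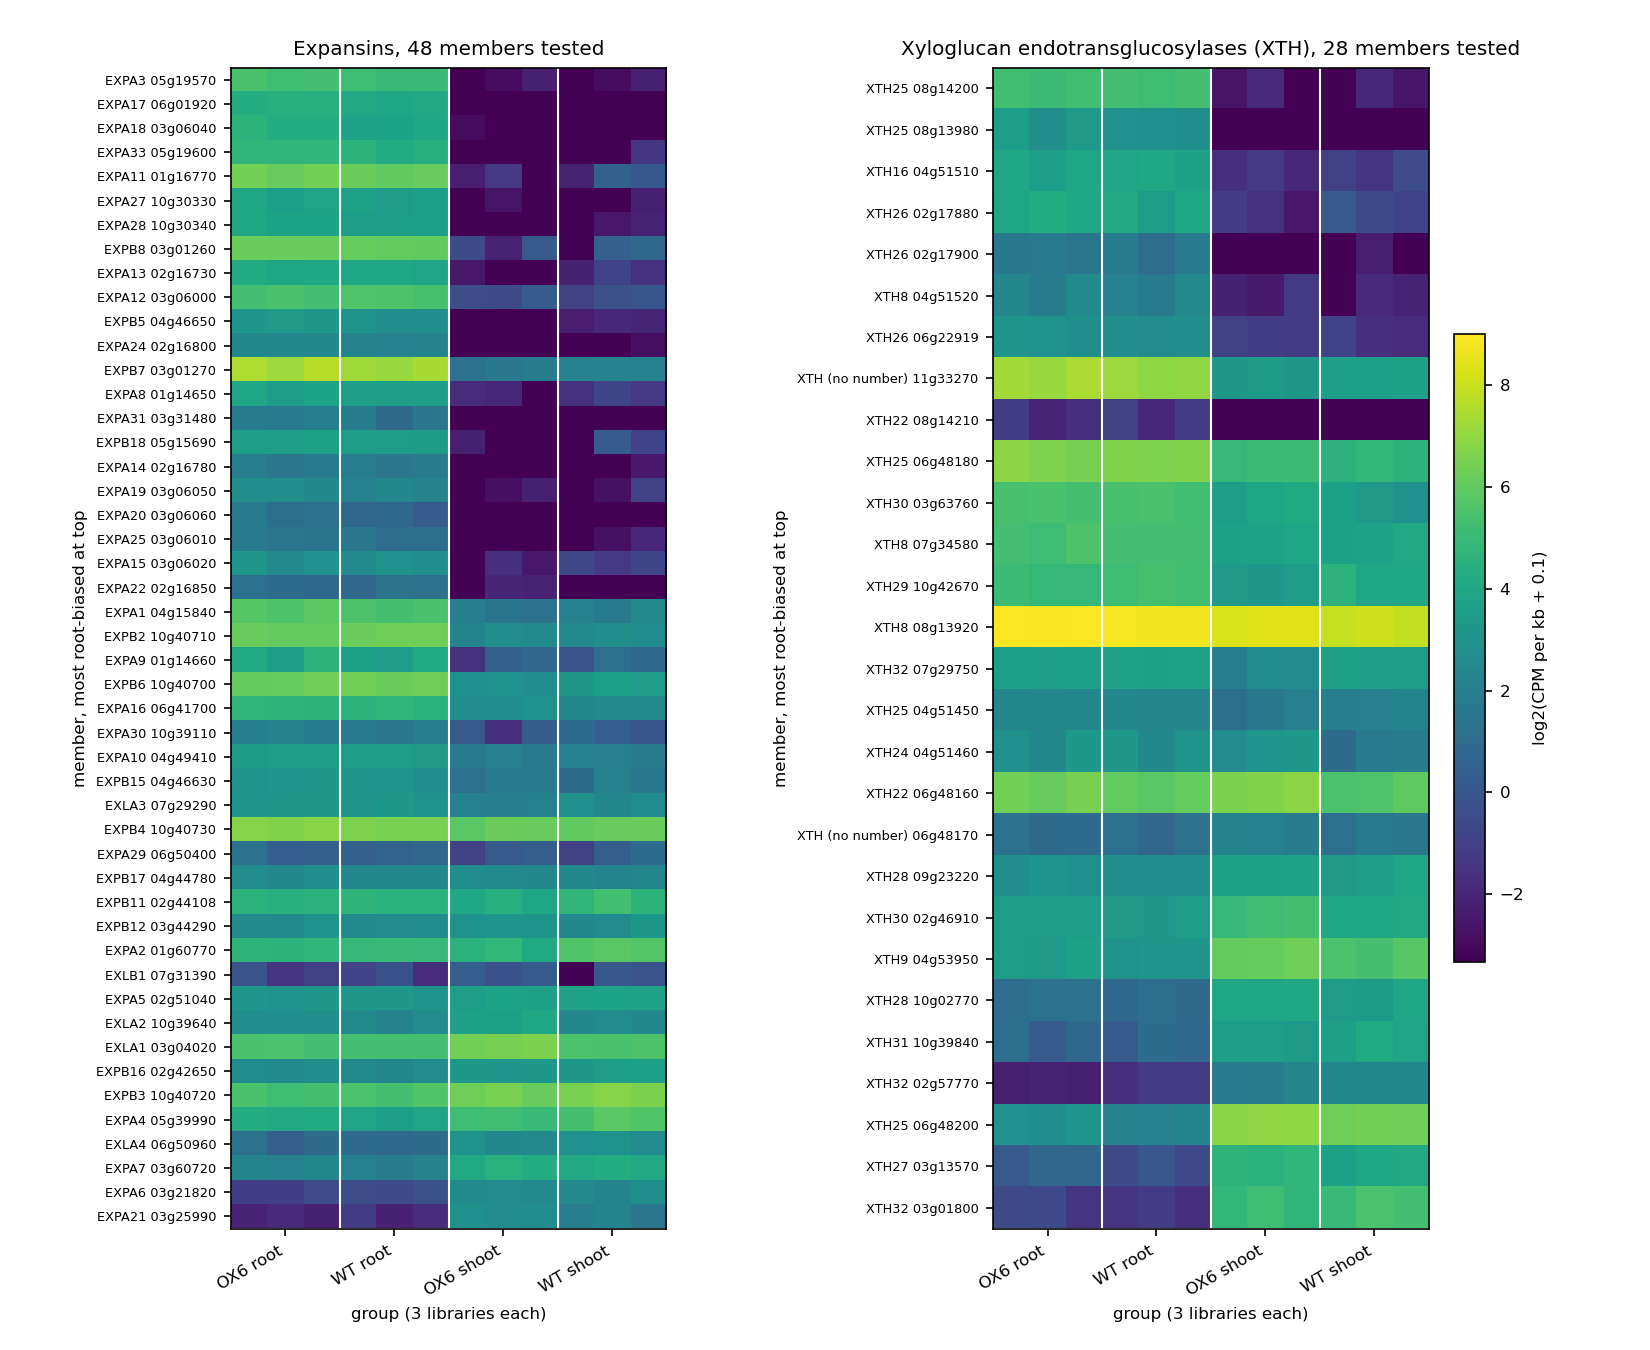
Level of each member tested across the 12 libraries, as log2(CPM per kb + 0.1), for 48 expansins (left) and 28 XTHs (right), with the 3 libraries of a group side by side, members ordered from the most root-biased at the top, and locus names shown without their LOC_Os prefix. Dark cells in the shoot columns mark the expansins whose transcripts were near 0 in shoots, and LOC_Os08g13920 (XTH8) is the bright row in all 4 groups.

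Not every member was expressed in these organs. No count was found in any library for 18 expansins, among them 13 of the 15 pollen-allergen or unnamed models, and 9 more had under 50 counts over the 12 libraries. Every XTH had counts, and 2 of them had under 50. A β-expansin cluster of 4 genes on chromosome 3 at 386873 to 402286, which holds models named EXPB1, EXPB13 and EXPB10, gave 1 count in all. A count of 0 over the 3 libraries of a group allows up to 3 counts. The filter on low counts left 47 expansins and 28 XTHs to test in roots, 29 and 22 in shoots, and 48 and 28 in the fit over all 12 libraries.

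Most expansins differed between roots and shoots, and more were higher in roots. Between WT root and WT shoot, 73% of all genes tested were called, 37.6% higher in roots and 35.4% lower. Of the 48 expansins tested, 32 were higher in roots, 10 were lower and 6 did not pass, and 23 of the 30 α-expansins tested were among those higher. The median log2 fold change of root over shoot was 3.20 for expansins, against 0.048 for all genes, and it was 3.21 with genes at 0 in shoots set at their lower bound. Of these expansins, 19 passed the count filter in roots and not in shoots, so their direction followed from the filter. Among the 28 expansins that passed in each organ, 13 were higher and 9 lower in WT roots, with a median of 0.17. For the 12 α-expansins among them, 6 were higher and 5 lower in WT roots, with a median of 0.82.

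Over all members tested, the XTHs were divided more evenly than the expansins. Among members that passed in each organ, the medians of both families were similar in WT. Between WT root and WT shoot, 16 of 28 were higher in roots and 9 lower, with a median of 0.95 on the log2 scale, and among the 22 that passed in each organ 10 were higher and 9 lower, with a median of 0.20. In OX6, where 73.8% of all genes were called, 37.3% higher in roots and 36.5% lower, 33 expansins were higher and 10 lower in roots, and 16 XTHs were higher and 11 lower. Among the members that passed the filter in each organ, OX6 had 14 of 28 expansins higher in roots and 9 lower, with a median of 0.54, and 10 of 22 XTHs higher and 11 lower, with a median of -0.25. The call was the same in both genotypes for 45 of 48 expansins and 23 of 28 XTHs, counts given without the share of all genes. Part of this agreement followed from the filter, which 19 expansins and 6 XTHs passed in roots and not in shoots. Opposite calls were made for 1 XTH, LOC_Os06g48160 (XTH22), at 0.30 in WT and -0.35 in OX6 on the log2 scale. With total counts as the scale, chosen after seeing the data, the median of all genes moved to 0.516 in WT and 0.439 in OX6, against 0.048 and 0.029, and genes higher in roots made up 67.2% of calls in WT and 65% in OX6, against 51.5% and 50.5%, so small organ differences depend on the scaling.

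Several α-expansins had no or almost no counts in shoots. EXPA17 (LOC_Os06g01920), which in rice is needed for root hair growth, had 2313 counts in OX6 roots and 0 in OX6 shoots, and 1811 in WT roots and 0 in WT shoots. With the shoot sum set at 3 counts this is at least 567-fold higher in OX6 roots and at least 533-fold higher in WT roots. EXPA18 (LOC_Os03g06040) had 1816 counts in WT roots and none in WT shoots, at least 535-fold higher in roots. EXPA31 (LOC_Os03g31480) had 356 counts in WT roots and none in WT shoots, at least 105-fold higher.

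EXPA3 (LOC_Os05g19570) differed by a factor of 722, with 34.6 ± 0.921 CPM per kb in WT roots and 0.0498 ± 0.0592 in WT shoots. The shoot level rests on 6 counts, and the fitted log2 fold change was 10.41 without WT shoot replicate 3 and 9.41 with it. Some XTHs were also near 0 in shoots. LOC_Os08g13980 (XTH25) was at least 247-fold higher in WT roots, with 838 counts there and 0 in WT shoots. LOC_Os08g14200 (XTH25), on the same chromosome, had 38.7 ± 2.87 CPM per kb in WT roots and 0.0777 ± 0.0854 in WT shoots, 398-fold more in roots. Its shoot level rests on 11 counts, and the fitted log2 fold change was 10.04 without WT shoot replicate 2 and 8.60 with it. LOC_Os02g17900 (XTH26, whose Arabidopsis namesake acts in root hairs) and LOC_Os04g51510 (XTH16) were 57.9-fold and 36.9-fold higher in WT roots. The value of LOC_Os02g17900 rests on 5 counts, all in WT shoot replicate 2, and its fitted log2 fold change was 9.59 without that library and 5.80 with it.

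The shoot-preferring members belonged to both families, and the largest such fold was an XTH. LOC_Os03g01800 (XTH32, of the XTH group that in Arabidopsis includes xyloglucan hydrolases) had 0.262, 0.347 and 0.225 CPM per kb in WT roots and 32.9, 46 and 40.1 in WT shoots, 148-fold more in shoots. LOC_Os03g13570 (XTH27), LOC_Os06g48200 (XTH25) and LOC_Os02g57770 (XTH32) were 22.1-fold, 18.2-fold and 17.6-fold higher in WT shoots than in WT roots. All 3 are counted among the 9 XTHs lower in roots.

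Of the expansins, EXPA21 (LOC_Os03g25990) was 18-fold and EXPA6 (LOC_Os03g21820) 8.18-fold higher in WT shoots than in WT roots. EXPA7 (LOC_Os03g60720) had 4.04 ± 0.492 CPM per kb in WT roots and 18.2 ± 1.05 in WT shoots, and EXLA4 (LOC_Os06g50960) 1.87 ± 0.0804 and 7.18 ± 0.968. These shoot folds were smaller than the root folds of EXPA17 and EXPA3.

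**Figure D2:**
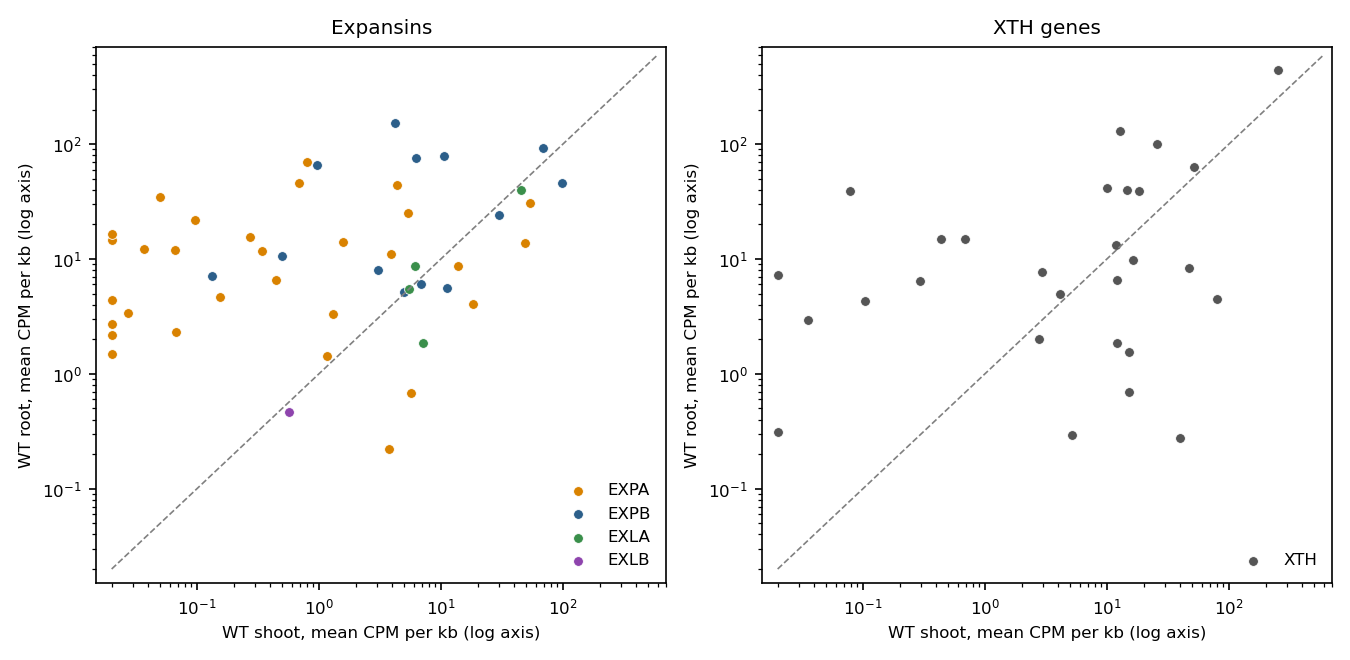
Mean level in WT roots (vertical) against WT shoots (horizontal), in CPM per kb on log axes, for the 48 expansins (left, coloured by class) and 28 XTHs (right) tested, with values under 0.02 drawn at 0.02 and equality as the dashed line. Many α-expansins lie at the left edge with root levels above 1 CPM per kb, while XTHs fall on both sides of the line.

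Tandem neighbours could differ by organ. Runs of at least 3 members of a family with starts under 50 kb apart numbered 9. In the β-expansin cluster on chromosome 10 at 21830151 to 21861307, EXPB6 (LOC_Os10g40700), EXPB2 (LOC_Os10g40710) and EXPB4 were higher in roots of both genotypes, and EXPB3 was higher in shoots. In WT the 4 genes had 79.1 ± 3.33, 75.5 ± 3.25, 45.6 ± 5.09 and 93.1 ± 3.18 CPM per kb in roots in the order EXPB6, EXPB2, EXPB3, EXPB4, against 10.7 ± 1.55, 6.22 ± 0.376, 99.1 ± 8.56 and 68.5 ± 4.70 in shoots. EXPB3 and EXPB4, next to each other, were the leading expansins of WT shoots, with EXPB6 and EXPB2 beside them at lower levels.

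The XTH cluster on chromosome 6 at 29133001 to 29157883 was likewise split. LOC_Os06g48180 (XTH25) had 101 ± 1.52 CPM per kb in WT roots and 25.6 ± 2.38 in WT shoots, whereas LOC_Os06g48200 (XTH25), the next member along the chromosome, had 4.47 ± 0.145 and 80.5 ± 4.43. The α-expansin clusters on chromosome 2 at 9551856 to 9601261 and on chromosome 3 at 2998855 to 3037894, hold 6 genes each, and none of these reached a mean of 1 CPM per kb in OX6 or WT shoots. The highest of them in roots, EXPA12 (LOC_Os03g06000), had 45.6 ± 2.99 CPM per kb in WT roots and 0.683 ± 0.231 in WT shoots. In the XTH cluster of chromosome 4 at 30473364 to 30523556, LOC_Os04g51510 and LOC_Os04g51520 (XTH8) were higher in roots of both genotypes, and LOC_Os04g51460 (XTH24) is described with the genotype results. Reads from close tandem copies, such as the 2 models named EXPA23, may be shared between them or lost, which was not tested.

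**Figure D3:**
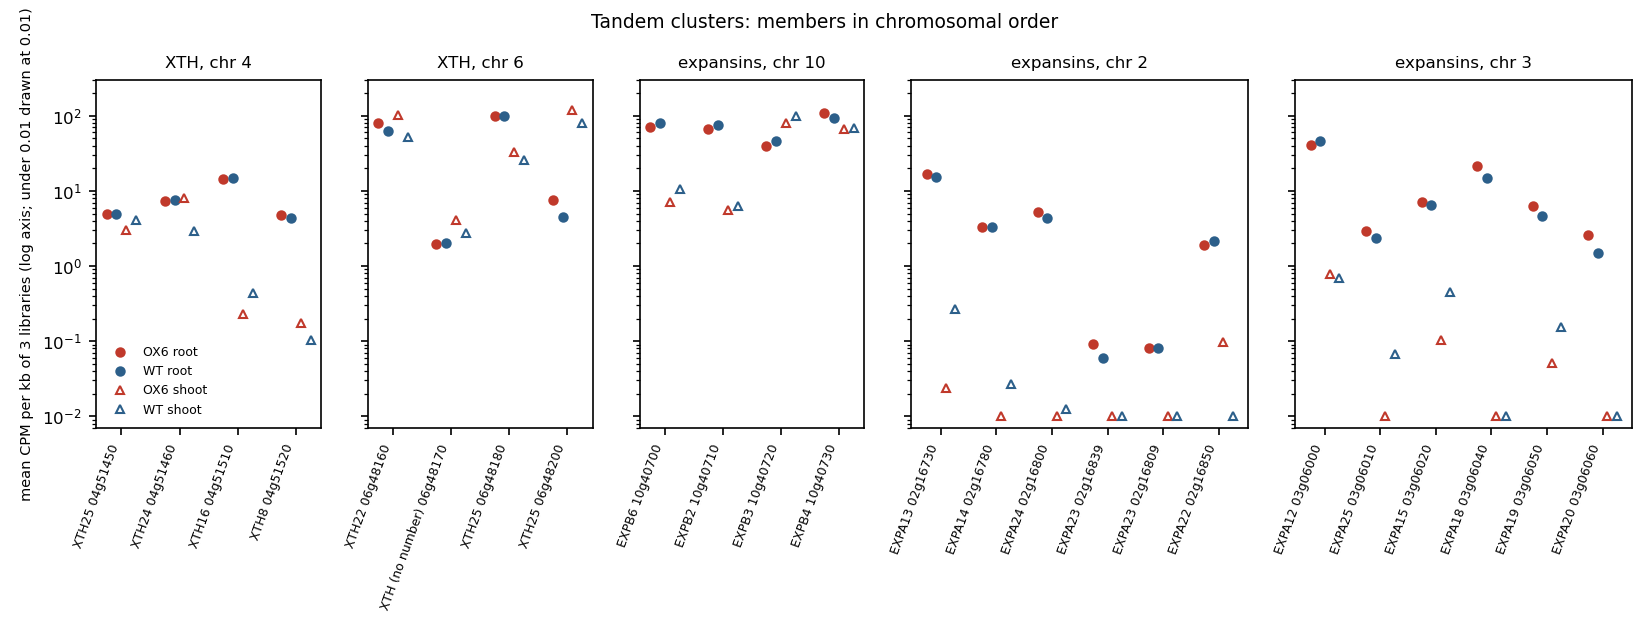
Mean level in CPM per kb (log axis, values under 0.01 drawn at 0.01) of the members of 5 tandem clusters, in chromosomal order, with circles for roots, open triangles for shoots, red for OX6 and blue for WT. EXPB3 on chromosome 10 and LOC_Os06g48200 on chromosome 6 are higher in shoots next to neighbours that are higher in roots.

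In roots, few members differed between OX6 and WT and the differences were small. Of all genes tested in roots 2.83% were called, 1.19% higher in OX6 and 1.64% lower, while 3 of 47 expansins (6.38%) and 3 of 28 XTHs (10.7%) were called. The higher ones were EXPA18, EXPA4, LOC_Os06g48200 (XTH25) and LOC_Os04g53950 (XTH9), and the lower ones EXPA2 (LOC_Os01g60770) and LOC_Os10g42670 (XTH29). The median log2 fold change was 0.19 for expansins and 0.12 for XTHs, against 0.002 for all genes, with 17 expansins and 11 XTHs at an unadjusted p under 0.05.

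LOC_Os06g48200, chromosome 6 at 29156425 to 29157883 on the minus strand, had 7.42, 6.88 and 8.46 CPM per kb in OX6 roots and 4.49, 4.32 and 4.61 in WT roots, with no overlap. It was 1.70-fold higher (log2 fold change 0.77 ± 0.115 SE, edgeR adjusted p = 0.000916). It is a shoot-preferring member, 15.6-fold higher in OX6 shoots than in OX6 roots. The call held in each alternative run for this comparison.

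EXPA18 had 24.5, 19.6 and 19.5 CPM per kb in OX6 roots and 13.4, 13.9 and 16.8 in WT roots, 1.44-fold higher in OX6 (log2 0.53 ± 0.108 SE, edgeR adjusted p = 0.0136). EXPA4 was 1.32-fold higher, with 18.9, 17.4 and 17.8 CPM per kb in OX6 roots and 14.4, 11.9 and 14.8 in WT roots (edgeR adjusted p = 0.0205). LOC_Os04g53950 had 10.8, 9.93 and 13.1 CPM per kb in OX6 roots and 7.93, 8.62 and 8.62 in WT roots (1.35-fold, edgeR adjusted p = 0.0372). The groups were separate for each of these genes.

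EXPA2 was lower in OX6 roots, at 25.5, 24.7 and 27.1 CPM per kb against 30.8, 31.2 and 30.8 in WT roots (log2 -0.26 ± 0.0675 SE, edgeR adjusted p = 0.0492). LOC_Os10g42670 was lower as well, at 34.5, 29.2 and 29.5 CPM per kb in OX6 roots against 36.5, 41.9 and 37.9 in WT roots (log2 -0.32 ± 0.0779 SE, edgeR adjusted p = 0.0373). All 5 calls other than LOC_Os06g48200 were lost with all 12 libraries in 1 fit (adjusted p 0.129 to 0.608) and without 1 library or another. Without WT root replicate 2 no expansin was called in edgeR, and without OX6 root replicate 3, WT root replicate 1 or WT root replicate 3 the XTH count was 1.

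The leading root genes did not pass the test. EXPB7 had a log2 fold change of 0.21 ± 0.112 SE (edgeR adjusted p = 0.47), and LOC_Os08g13920, the dominant XTH, 0.19 ± 0.061 SE with 512, 487 and 526 CPM per kb in OX6 roots and 450, 441 and 445 in WT roots (adjusted p = 0.128). For LOC_Os08g13920 the groups did not overlap. No β-expansin and no expansin-like gene was called in roots by edgeR, with 4 of 13 EXPB and 1 of 4 EXLA genes at an unadjusted p under 0.05, and DESeq2 called 1 EXPB and 0 EXLA genes.

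In shoots 16 members differed between OX6 and WT, among them the most abundant XTH. Of all genes tested in shoots 5.64% were called, 3.18% higher in OX6 and 2.46% lower, whereas 9 of 22 XTHs (40.9%) and 7 of 29 expansins (24.1%) were called. Of the XTHs, 7 rose and 2 fell, with a median log2 fold change of 0.38 over the 22 tested, against -0.006 for all genes. Of the expansins, 3 rose and 4 fell, with a median of -0.15. By class, 2 of 4 EXLA genes rose, 1 of 13 EXPA genes rose and 2 fell, and 2 of 11 EXPB genes fell.

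The XTHs that rose covered low and high levels. LOC_Os02g46910 (XTH30), chromosome 2 at 28621982 to 28624683 on the plus strand, had 30.8, 36.6 and 40.6 CPM per kb in OX6 shoots and 15.3, 16.7 and 17.1 in WT shoots, 2.20-fold higher (log2 1.14 ± 0.114 SE, edgeR adjusted p = 5.65e-06). LOC_Os06g48160 (XTH22), whose Arabidopsis namesake is the touch-induced TCH4, had 94.1, 100 and 114 CPM per kb in OX6 shoots and 45.8, 48.2 and 61.6 in WT shoots, 1.98-fold higher (log2 0.98 ± 0.122 SE, edgeR adjusted p = 5.83e-05). Each OX6 library of both genes lay above each WT library.

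LOC_Os04g51460 (XTH24) had 6.14, 8.77 and 9.37 CPM per kb in OX6 shoots and 1.98, 3.22 and 3.54 in WT shoots, 2.75-fold higher, the largest rise of the 7 (log2 1.46 ± 0.233 SE, edgeR adjusted p = 0.000726). LOC_Os03g13570 (XTH27) had 26.1, 23.1 and 27.1 CPM per kb in OX6 shoots and 12.8, 15.8 and 17.4 in WT shoots, 1.66-fold higher (edgeR adjusted p = 0.00152). In roots LOC_Os03g13570 had a log2 fold change of 0.99 ± 0.265 SE from low levels and did not pass (edgeR adjusted p = 0.0585).

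LOC_Os06g48200 was 1.47-fold higher in OX6 shoots, with 113, 123 and 120 CPM per kb against 77.6, 85.6 and 78.3 in WT shoots (edgeR adjusted p = 0.00177). LOC_Os04g53950 (XTH9) was 1.48-fold higher, with 66, 68 and 76.6 CPM per kb in OX6 shoots and 45.6, 41.4 and 54.8 in WT shoots (edgeR adjusted p = 0.00545). LOC_Os08g13920 (XTH8) was 1.33-fold higher, with 326, 332 and 345 CPM per kb in OX6 shoots and 245, 276 and 235 in WT shoots (edgeR adjusted p = 0.0208). Of the 7 rises, the last was the smallest in fold, yet it accounted for the largest part of the difference in summed XTH level. The calls of XTH8 and XTH9 depended on the OX6 libraries: the adjusted p of LOC_Os08g13920 was 0.0733, 0.087 and 0.124 without OX6 shoot replicate 1, 2 or 3, and that of LOC_Os04g53950 was 0.0634 without OX6 shoot replicate 3.

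The XTHs that fell were LOC_Os07g29750 (XTH32) and LOC_Os10g42670 (XTH29). LOC_Os07g29750 had 3.70, 6.22 and 6.07 CPM per kb in OX6 shoots and 12.7, 11.8 and 11.3 in WT shoots (log2 -1.16 ± 0.177 SE, edgeR adjusted p = 0.000469). LOC_Os10g42670 had 9.99, 9.51 and 11.5 CPM per kb in OX6 shoots and 24.1, 15.1 and 16 in WT shoots (log2 -0.83 ± 0.165 SE, edgeR adjusted p = 0.00527). WT shoot replicate 1 was the highest library for each, and the groups did not overlap. The other XTHs named XTH32, LOC_Os03g01800 and LOC_Os02g57770, had log2 fold changes of -0.40 ± 0.134 SE and -0.40 ± 0.206 SE and did not pass (edgeR adjusted p = 0.0993 and 0.319).

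The expansins that rose in shoots were EXLA1, EXLA2 (LOC_Os10g39640) and EXPA21. EXLA1, chromosome 3 at 1831332 to 1833506 on the plus strand, had 83, 88.9 and 93.9 CPM per kb in OX6 shoots and 45.8, 44.6 and 46.4 in WT shoots, 1.94-fold higher (log2 0.96 ± 0.099 SE, edgeR adjusted p = 7.3e-06). EXLA2, chromosome 10 at 21179529 to 21181718 on the plus strand, had 13.1, 12.9 and 16.2 CPM per kb in OX6 shoots and 5.16, 6.12 and 5.25 in WT shoots, 2.54-fold higher (log2 1.34 ± 0.145 SE, edgeR adjusted p = 1.21e-05). The summed EXLA level was 113 ± 6.22 CPM per kb in OX6 shoots and 64.4 ± 1.05 in WT shoots.

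The remaining EXLA genes had lower means in OX6 shoots. EXLA3 (LOC_Os07g29290) had 4.13, 3.77 and 4.17 CPM per kb in OX6 shoots and 7.19, 5.01 and 6.24 in WT shoots, and EXLA4 had 6.19 ± 1.28 in OX6 shoots and 7.18 ± 0.968 in WT shoots. Neither passed the edgeR test (adjusted p = 0.0568 and 0.59), while DESeq2 called 1 EXLA gene lower. EXPA21 had 7.07, 6.07 and 6.45 CPM per kb in OX6 shoots and 3.78, 4.66 and 2.84 in WT shoots, 1.72-fold higher (edgeR adjusted p = 0.0305).

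The expansins that fell in OX6 shoots were EXPA2, EXPA4, EXPB6 and EXPB11 (LOC_Os02g44108). EXPA2, chromosome 1 at 35145516 to 35147338 on the plus strand, had 23.5, 28.8 and 18.1 CPM per kb in OX6 shoots and 51.1, 58.3 and 52.3 in WT shoots (log2 -1.20 ± 0.14 SE, edgeR adjusted p = 3.75e-05). EXPA4, which in rice acts in coleoptile and mesocotyl growth, had 36.2, 37.7 and 32.8 CPM per kb in OX6 shoots and 40.8, 57.2 and 49.9 in WT shoots (log2 -0.47 ± 0.121 SE, edgeR adjusted p = 0.0258). EXPA2 ranked 3 among the expansins of WT shoots and 5 among those of OX6 shoots.

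EXPB11 had 16, 21.8 and 15.3 CPM per kb in OX6 shoots and 26.2, 38.2 and 25.1 in WT shoots (log2 -0.76 ± 0.169 SE, edgeR adjusted p = 0.0148). EXPB6 had 7.12, 7.91 and 6.39 CPM per kb in OX6 shoots and 9.18, 12.3 and 10.6 in WT shoots (log2 -0.59 ± 0.161 SE, edgeR adjusted p = 0.0374). WT shoot replicate 2, the most deeply sequenced library, was the highest for EXPA2, EXPA4, EXPB6 and EXPB11. The calls of EXPA4, EXPB6, EXPB11 and EXPA21 were lost without some libraries: without WT shoot replicate 2 the adjusted p was 0.148 for EXPA4, 0.174 for EXPB6 and 0.0641 for EXPB11, and without OX6 shoot replicate 1 it was 0.0971, 0.125 and 0.0881 and for EXPA21 0.137. The count of expansins called in shoots was 3 without OX6 shoot replicate 1 or 3, 4 without OX6 shoot replicate 2, and 9 without WT shoot replicate 1.

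**Figure D4:**
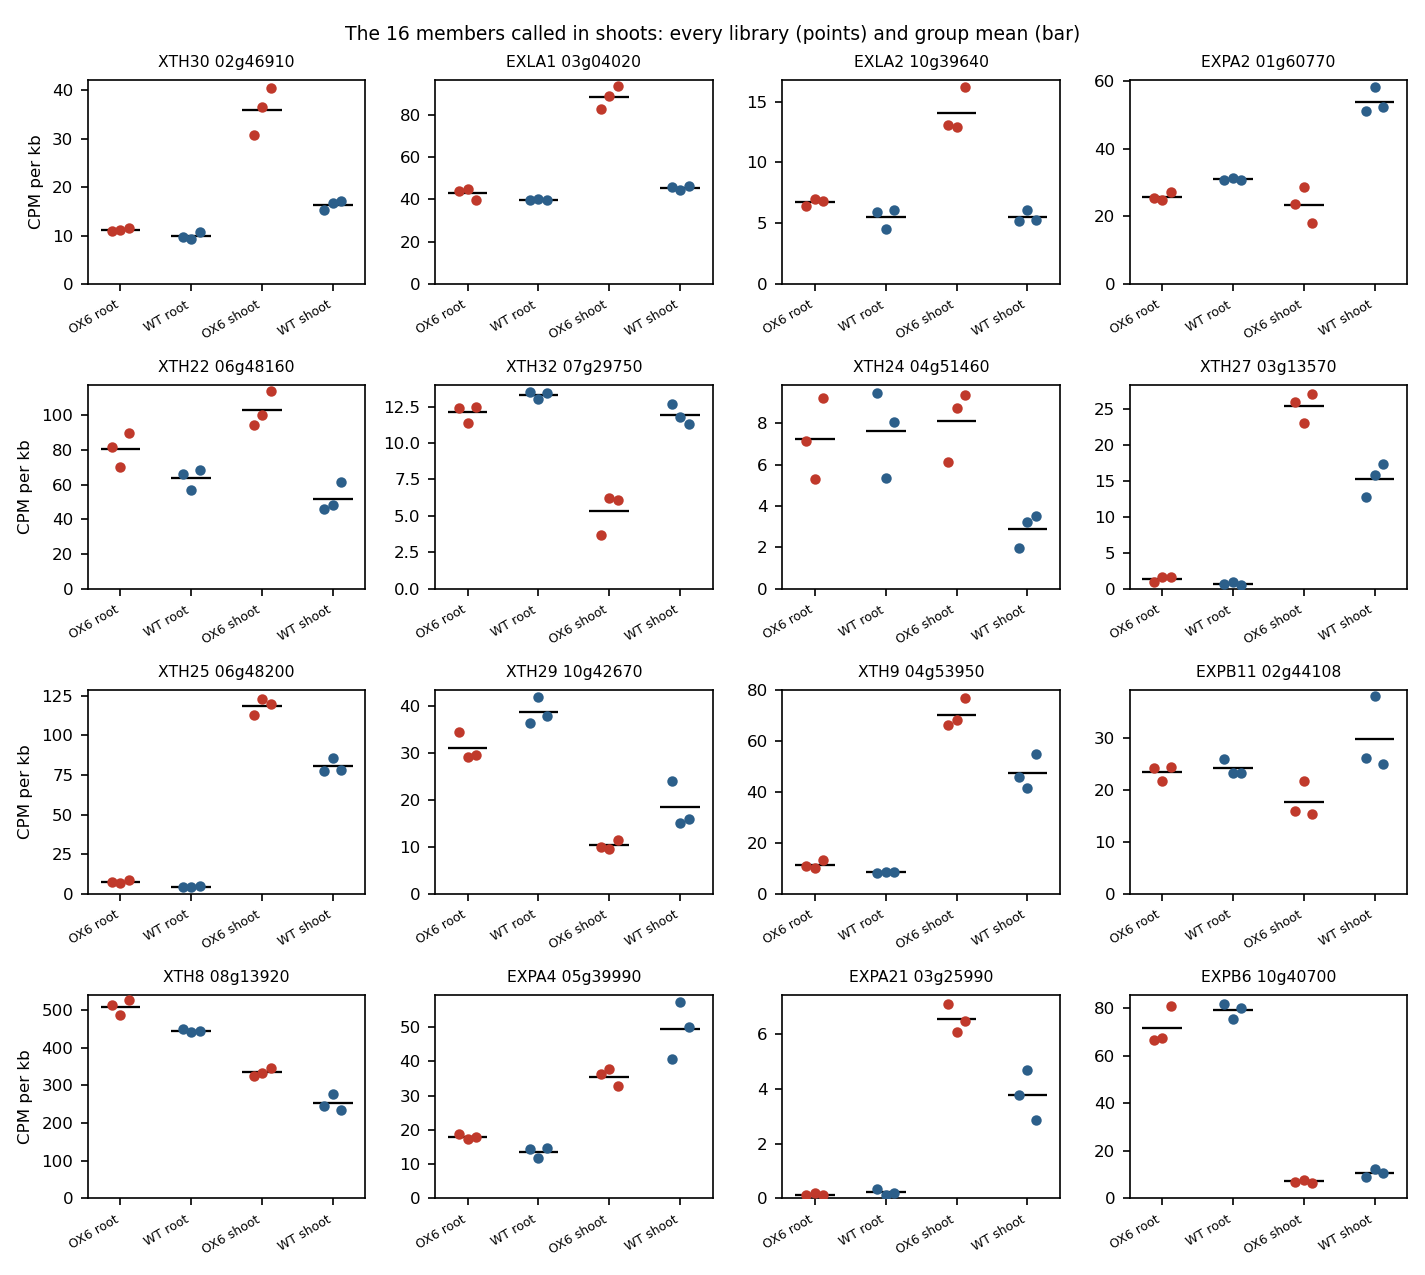
Level in CPM per kb (vertical, from 0) of the 16 members called between OX6 and WT shoots, ordered by adjusted p, with 1 point per library, a bar at the mean of 3 libraries, red for OX6 and blue for WT, and locus names without their LOC_Os prefix. The shoot columns show the OX6 points above the WT points for EXLA1 and LOC_Os06g48160 (XTH22) and below them for EXPA2 and LOC_Os07g29750 (XTH32).

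Markers of photosynthetic tissue moved with genotype in shoots. As given above, summed chlorophyll a-b binding transcripts lay lower in each OX6 shoot library than in each WT shoot library. Of the 20 such genes tested, 7 fell (35%) and 0 rose in edgeR, beside 2.46% of all genes lower and 3.18% higher. DESeq2 called 11 of them lower. Of the 4 RuBisCO small chain genes none was called by edgeR and 1 was called lower by DESeq2, and 4 had an unadjusted p under 0.05. Markers of dividing tissue overlapped between genotypes: A- and B-type cyclins summed to 245, 241 and 258 CPM in OX6 shoots and 211, 210 and 263 in WT shoots, and histones H3 and H4 to 2220, 2480 and 2310 CPM in OX6 shoots and 2010, 2010 and 2560 in WT shoots. The part of tissue makeup in the shoot results was not tested.

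Of the 17 members called in either organ, 5 were called in both, a count given without the share of all genes. LOC_Os06g48200 (XTH25) and LOC_Os04g53950 (XTH9) rose in OX6 roots and OX6 shoots, EXPA2 and LOC_Os10g42670 (XTH29) fell in both, and EXPA4 rose in OX6 roots and fell in OX6 shoots. Except for LOC_Os06g48200, their root calls were lost with all 12 libraries in 1 fit (edgeR adjusted p 0.129 to 0.608).

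Whether the genotype difference itself differed between organs was tested as an interaction, the log2 fold change of OX6 over WT in roots minus that in shoots. Of all genes 1.97% were called, 0.692% positive and 1.28% negative, while 6 of 48 expansins (12.5%) and 4 of 28 XTHs (14.3%) were. Positive calls made up 35.1% of the genes called, but 47.1% with upper-quartile scaling and 49.8% in DESeq2. EXPB5 and EXPA13, counted among the 6, did not pass the filter in shoots. Over the members that passed the filter in each organ, 2 of 28 expansins and 2 of 22 XTHs were positive, and 2 of each were negative. The medians of these members were 0.22 for expansins and -0.03 for XTHs, against 0 for all genes. EXLA1 (-0.85 ± 0.112 SE, edgeR adjusted p = 0.000292), EXLA2 (-1.05 ± 0.193 SE, edgeR adjusted p = 0.00524), LOC_Os02g46910 (-0.95 ± 0.141 SE, edgeR adjusted p = 0.000877) and LOC_Os04g51460 (-1.53 ± 0.359 SE, edgeR adjusted p = 0.0356) rose in OX6 shoots and did not pass in roots.

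In roots EXLA1 stood at 44.1, 45 and 39.8 CPM per kb in OX6 and 39.9, 40.3 and 39.6 in WT, and LOC_Os02g46910 at 11, 11.1 and 11.5 in OX6 and 9.62, 9.26 and 10.7 in WT. EXPA2 (0.94 ± 0.172 SE, edgeR adjusted p = 0.00544) fell further in OX6 shoots than in OX6 roots. EXPA4 (0.87 ± 0.164 SE, edgeR adjusted p = 0.00669) moved in opposite directions, as described. LOC_Os07g29750 (1.02 ± 0.202 SE, edgeR adjusted p = 0.0097) fell in OX6 shoots, while its root log2 fold change was -0.14 ± 0.0754 SE.

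LOC_Os11g33270 (0.66 ± 0.151 SE, edgeR adjusted p = 0.0279) had 156, 135 and 174 CPM per kb in OX6 roots and 147, 121 and 124 in WT roots, and 9.05, 10.3 and 9.21 in OX6 shoots and 12.5, 12.3 and 13.3 in WT shoots, a difference that passed the test in neither organ alone. This call and that of LOC_Os04g51460 did not pass in limma-voom (adjusted p 0.0603 and 0.0563) or without several single libraries.

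The last pair of interaction calls came from traces in shoots. EXPB5 (LOC_Os04g46650) had 0, 0 and 0 counts in OX6 shoots and 3, 10 and 5 in WT shoots, beside 1370 counts in OX6 roots and 1041 in WT roots. EXPA13 (LOC_Os02g16730) had 3, 0 and 0 counts in OX6 shoots and 4, 29 and 9 in WT shoots, beside 2589 and 2352 in OX6 and WT roots. Their fitted interactions of 6.02 and 3.52 depend on the treatment of counts at or near 0, and without WT shoot replicate 2 the value of EXPA13 was 2.81 (edgeR adjusted p = 0.0886). Its call was also lost without OX6 shoot replicate 2 or 3 (adjusted p 0.0623 and 0.0771) and in limma-voom (adjusted p = 0.0627).

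Traces were also found for other members. The 25 members that passed the count filter in roots and not in shoots summed to 32, 40 and 30 counts in OX6 shoots and 38, 249 and 141 in WT shoots, or 0.908, 1.57 and 0.931 CPM per kb in OX6 shoots and 1.52, 4.69 and 4.77 in WT shoots. WT shoot replicates 2 and 3 stood above the others. The summed root markers stood at 18.6 CPM in WT shoot replicate 1 and 11.9 and 11.1 CPM in replicates 2 and 3. Nearly all of this was Lsi1, at 17.4, 11.5 and 10.3 CPM. The source of the traces was not tested.

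**Figure D5:**
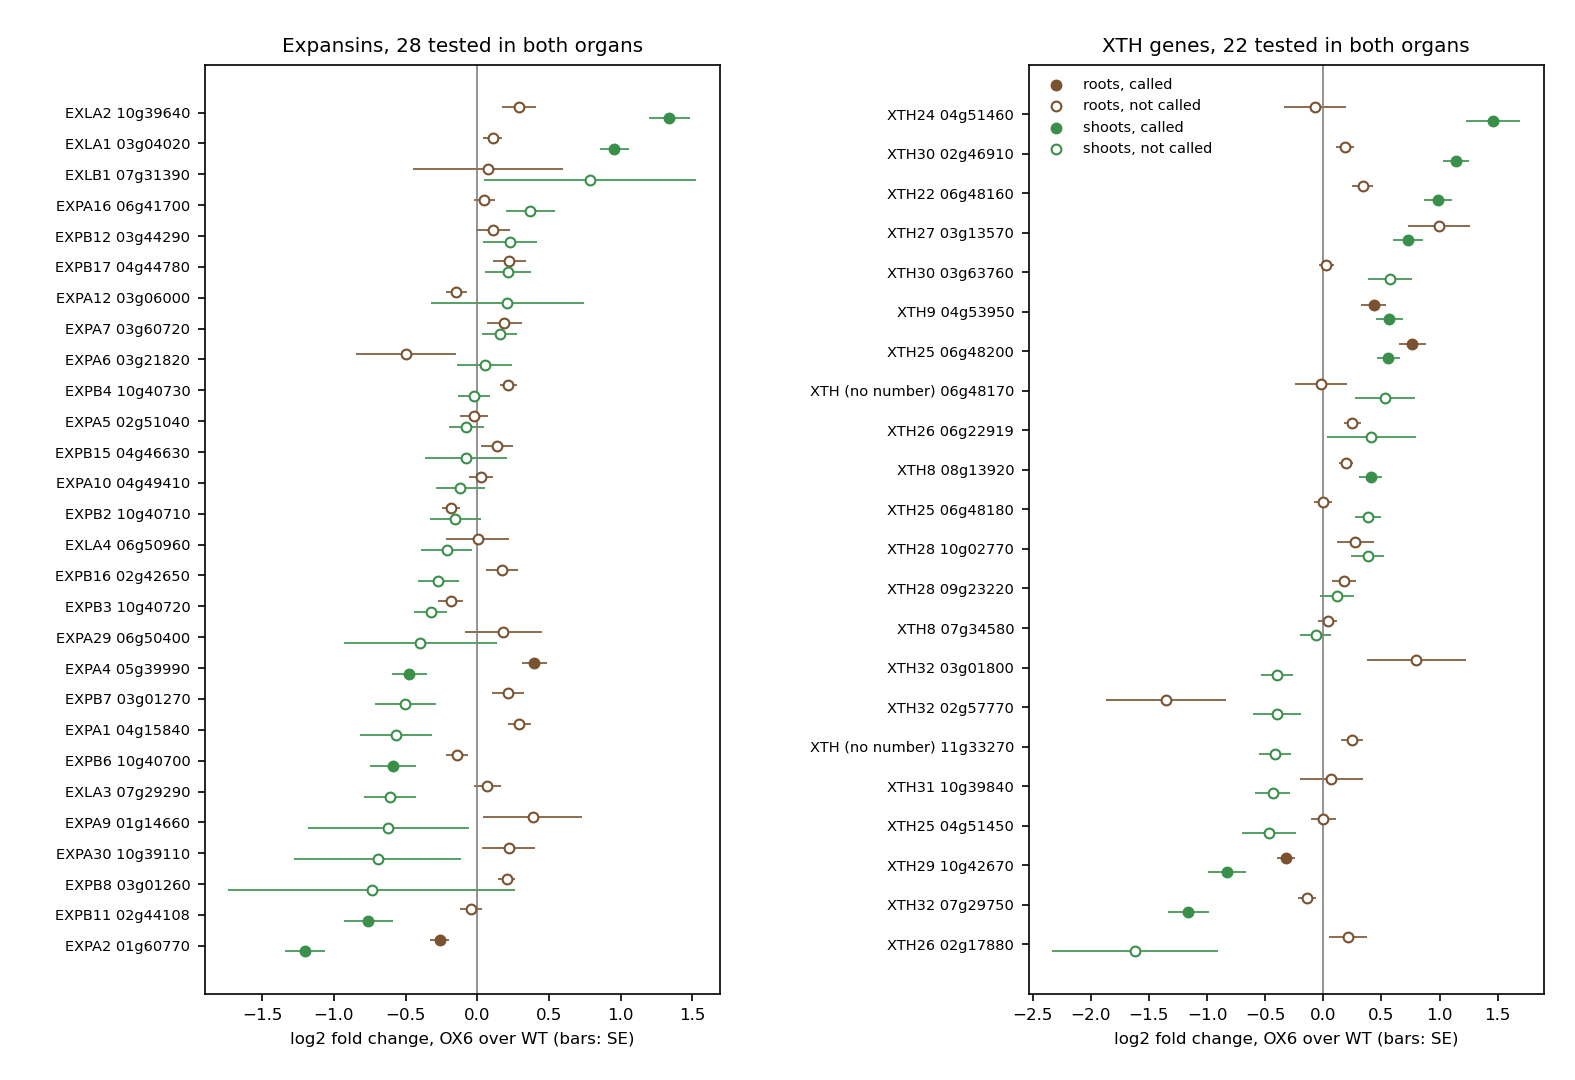
Log2 fold change of OX6 over WT with its SE in roots (brown) and shoots (green) for the 28 expansins (left) and 22 XTHs (right) tested in both organs, ordered by the shoot value, with filled points for calls and locus names without their LOC_Os prefix. EXLA1 and EXLA2 lead the expansins and XTH24 and XTH30 the XTHs in shoots, with root values of 0.29 or less.

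Other genes of xyloglucan and wall loosening were called in roots for 2 of 23 endo-glucanases of glycosyl hydrolase family 9 (8.7%) and 1 of 12 EXORDIUM genes (8.33%), beside 2.83% of all genes. LOC_Os01g12070 (Endoglucanase 2) rose, with 10.1 ± 0.0724 CPM per kb in OX6 roots and 7.68 ± 0.728 in WT roots, and LOC_Os02g03120 (Endoglucanase 4) fell, with 6.72 ± 0.306 in OX6 roots and 10.1 ± 0.621 in WT roots. Of the EXORDIUM genes, whose Arabidopsis founder promotes brassinosteroid-dependent growth, LOC_Os02g52000 fell in OX6 roots (log2 -0.31 ± 0.0681 SE, edgeR adjusted p = 0.0191).

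In shoots a pair of EXORDIUM genes rose. LOC_Os02g52010 had 22.3 ± 1.30 CPM per kb in OX6 shoots and 9.67 ± 1.07 in WT shoots (log2 1.20 ± 0.126 SE, edgeR adjusted p = 8.29e-06). LOC_Os02g52040 had 50.3 ± 5.10 CPM per kb in OX6 shoots and 23 ± 5.60 in WT shoots (log2 1.13 ± 0.146 SE, edgeR adjusted p = 0.000134). These 2 of 11 tested (18.2%, beside 5.64% of all genes) rose and 0 fell in edgeR, with 6 at an unadjusted p under 0.05, and DESeq2 called 3 higher. Both were called in the interaction, at -0.98 and -1.21 (edgeR adjusted p = 0.000534 and 0.00214).

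Of the genes that build xyloglucan, 2 of 8 CSLC glucan synthases (25%) were called in shoots, beside 5.64% of all genes. LOC_Os03g56060 rose (log2 0.53 ± 0.143 SE, edgeR adjusted p = 0.0363) and LOC_Os08g15420 fell from a low level, with 0.133 ± 0.0686 CPM per kb in OX6 shoots and 0.739 ± 0.431 in WT shoots. Of 20 endo-glucanases 2 were called in shoots (10%), LOC_Os02g50040 (Endoglucanase 6) higher and LOC_Os06g14540 (Endoglucanase 17) lower in OX6. No GT34 xylosyltransferase of 7 and no GT37 fucosyltransferase of 10 was called in shoots by edgeR or DESeq2, with 1 and 5 at an unadjusted p under 0.05 in edgeR. In roots no CSLC gene of 7, GT34 gene of 8 or GT37 gene of 16 was called by edgeR or DESeq2, with 1, 1 and 3 at an unadjusted p under 0.05 in edgeR.

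In the interaction, 2 of 8 CSLC genes (25%) and 2 of 17 GT37 genes (11.8%) were called by edgeR, beside 1.97% of all genes. The CSLC genes were LOC_Os03g56060, at -0.75, and LOC_Os08g15420, at 2.52 (edgeR adjusted p = 0.0124 and 0.0469). The GT37 genes were LOC_Os06g10930, at 2.58, with 0.0393 ± 0.0369 CPM per kb in OX6 shoots and 0.234 ± 0.0455 in WT shoots, and LOC_Os02g17534, at -1.05, with 0.138 ± 0.0305 in OX6 roots and 0.29 ± 0.0362 in WT roots (edgeR adjusted p = 0.0079 and 0.0414). DESeq2 called 2 GT37 genes in each direction and limma-voom 0 in all.

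Single models need care where they overlap others. EXPA10 (LOC_Os04g49410) overlaps over 1582 bases a second expansin model of the same name on the opposite strand, LOC_Os04g49420, which had 0 counts, and EXLB1 (LOC_Os07g31390), with 276 counts in all, overlaps a FAR1-related gene with 5183 counts. LOC_Os06g22919 (XTH26) overlaps a model with 46 counts. None of these members was called between genotypes by edgeR.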

How the data were processed

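The authors deposited a table of raw read counts per gene. Per the submitters' processing notes, the tools were HISAT2 2.0.5 for alignment and featureCounts 1.5.0-p3 for counting. Genome build, annotation and strand setting: not given in the sources used here. Reads of antisense or near-identical models may therefore be shared, and coordinates and lengths are those of the deposited table. The reference gene table matched 0 members and held no sequence of them.

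Counts were tested with edgeR 4.0.16 (R 4.3.3), using TMM scaling, filterByExpr (minimum count 10, minimum total 15), robust quasi-likelihood fits and two-sided tests. Benjamini-Hochberg adjustment ran over all genes tested, and calls had an adjusted p under 0.05. Each SE was derived from the test, as the absolute log2 fold change divided by the square root of the F statistic. OX6 and WT were compared within the 6 libraries of each organ, and the organ contrasts and the interaction in 1 fit of all 12. Fitted coefficients of variation were 9.61% (roots), 16.2% (shoots) and 13.2% (12 libraries). Levels in CPM per kb used the TMM sizes of all 12 libraries. Replicates differed by more than sampling noise (chi-square per gene 5.14 to 26.7). For lower bounds, a group sum of 0 was set to 3 counts.

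The members and lists were chosen with earlier results of these data known. Named genes were members called between genotypes or in the interaction, the 4 highest per family and organ, the 4 with the largest WT organ fold per family and direction (at least 1 CPM per kb in the higher organ), members of tandem clusters, and up to 3 called genes of each list. EXLA3 and the models with overlapping neighbours were named after their values were seen.

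Each library was left out in turn. Other settings were RLE or upper-quartile scaling, no filter, a filter of CPM over 1 in 3 libraries, DESeq2 1.42.0, limma-voom (limma 3.58.1), a replicate block, and fits on other sets of libraries. The computations were tested on simulated data.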

Additional observations from a re-analysis of the deposited data

Results flagged for a closer look

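The tests of a genotype difference that differs between organs passed for 10 members. Each value is the log2 fold change of OX6 over WT in roots minus that in shoots, from edgeR. The values were -0.85 for EXLA1, -1.05 for EXLA2, -0.95 for LOC_Os02g46910 (XTH30) and -1.53 for LOC_Os04g51460 (XTH24), the members that rose in OX6 shoots. They were 0.94 for EXPA2, 0.87 for EXPA4, 1.02 for LOC_Os07g29750 (XTH32) and 0.66 for LOC_Os11g33270 (an XTH with no number). For EXPB5 the value was 6.02 and for EXPA13 it was 3.52, both fitted to shoot counts at or near 0.

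The value of EXPB5 was 3.77 in limma-voom and 5.17 in DESeq2. That of EXPA13 ranged from 2.81 without WT shoot replicate 2 to 6.99 without OX6 shoot replicate 1.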

How the results depend on the processing

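Of 103 results, 88 were fold changes of named genes. Among their 1338 alternative values, 1255 kept direction and side of the threshold, 81 lost the call and 2 reversed. These values pool the organ contrasts with the genotype contrasts, so they do not give the stability of the genotype calls. In roots the call was kept in 14 of 14 settings for LOC_Os06g48200, 11 for EXPA18 and EXPA4 and 9 for LOC_Os04g53950. For LOC_Os10g42670 it was kept in 7 and for EXPA2 in 5. The least stable call was kept in 9 of 14 settings in shoots (EXPA21) and 10 of 19 in the interaction (LOC_Os04g51460). The remaining results, counts of calls, are outside this tally and several of them moved, as given below. The organ contrasts reversed only with total counts as the scale, chosen after seeing the data: EXLA1 in WT was 0.28 (log2 root over shoot) and LOC_Os06g48160 (XTH22) in OX6 was 0.06, against -0.19 and -0.35. For OX6 against WT in roots, 7 expansins and 5 XTHs were called with no filter and 5 and 6 by DESeq2, against 3 and 3. These counts are given without the number of all genes called in the same setting, so a shift particular to the members cannot be read from them. With 12 libraries in 1 fit, 293 genes and 0 expansins were called in roots, against 753 and 3. In shoots that fit called 2459 genes and 12 expansins, against 1481 and 7. For the interaction DESeq2 called 1207 genes, 12 expansins and 7 XTHs, against 572, 6 and 4. The cause was not tested. Leaving out each library gave 407 to 773 genes, 0 to 3 expansins and 1 to 4 XTHs in roots, 708 to 1877, 3 to 9 and 7 to 12 in shoots, and 382 to 701, 6 to 11 and 2 to 6 in the interaction. Same-numbered replicates did not deviate together (correlations -0.0572 to 0.0488). Paired samples need not share deviations, so this cannot show whether the numbers pair samples. With the replicate block 2 expansins and 4 XTHs were called in roots, 7 and 9 in shoots, and 7 and 5 in the interaction. These, too, are given without the number of all genes called. With the block the root calls of EXPA2 and LOC_Os10g42670 were not passed (adjusted p 0.0803 and 0.0552). Depth limits the members with under 50 counts, which were not tested.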
